A study of Mus musculus with 24 samples.

Results

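Ribosome footprints of Neuro-2a (N2a) mouse neuroblastoma cells labelled eIF4E3 KO were compared with those of control cells while the mTOR kinase was inhibited. The comparison used 6 of the 24 samples of the series, 3 Ribo-seq libraries labelled eIF4E3 KO with Torin1 and 3 of the ctrl genotype with Torin1, taken by their labels. Both groups had received 250 nM Torin1 in DMSO for 2 h in high-glucose medium with serum and without pyruvate. KO cells had been transfected with Cas9 vectors for 3 guide RNAs against Eif4e3 and selected with puromycin, so the line is a selected population that no source used here describes as a clone, and ctrl cells carried the empty Cas9 vector. Each replicate was a separate passage of the same pair of lines, so p-values measure the spread between these passages. For comparison, 6 RNA-seq libraries of the same groups and 5 Ribo-seq libraries of both genotypes in DMSO were used (3 of KO and 2 of ctrl).

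Translation of most mRNAs starts when eIF4E, the cap-binding protein, joins the scaffold eIF4G and the helicase eIF4A in the eIF4F complex. The 4E-binding proteins hold eIF4E away from eIF4G unless the mTOR kinase phosphorylates them, so mTOR inhibitors such as Torin1 reduce cap-dependent initiation. eIF4E3 is a further cap-binding protein of the eIF4E family. In Ribo-seq, RNase I digests the mRNA that no ribosome shields, and the footprints that remain on a coding sequence (CDS) are counted. Fewer footprints on a CDS can come from fewer mRNAs or from fewer ribosomes per mRNA. The mRNA of the same groups was therefore tested as well, and its values are given for some of the transcripts. In bulk libraries fewer cells that use a gene and less RNA per cell cannot be told apart. Levels are relative to the library, so a change shared by all transcripts could not be seen.

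The footprint table listed 10884 transcripts, 1 per gene in nearly all cases, with 1289467, 2015998 and 1655708 counts in ctrl replicates 1, 2 and 3 and 2132682, 1937262 and 1615614 in KO replicates 1, 2 and 3. Across transcripts, log2 values of any 2 libraries had a Pearson's r of 0.969 to 0.979 within a genotype and 0.957 to 0.973 between genotypes. Of 15 markers of sympathoadrenal and neuroblastoma cells, 14 were listed (Phox2a, Hand2 and Gata3 among them), and their summed footprint level in counts per 1e6 counts of the library (CPM) was 5180 to 6060 in ctrl and 4960 to 5170 in KO. The only listed marker of fibroblasts was Pdgfra, at 5.14 to 7.94 CPM, and no marker of astrocytes and Schwann cells, of epithelium or of blood was listed.

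The targeted gene was low in the KO libraries. Eif4e3 had 29, 25 and 31 footprints in the ctrl libraries and 15, 7 and 4 in the KO libraries, or 22.5, 12.4 and 18.9 against 7.08, 3.60 and 2.45 CPM after scaling by the trimmed mean of M values (TMM). The groups did not overlap, and the log2 fold change (KO minus ctrl) was -1.93 ± 0.367 (SE, n = 3 per group, edgeR quasi-likelihood test, Benjamini-Hochberg adjusted p = 0.000617). Eif4e3 mRNA was at 14.3, 17.5 and 12.7 CPM in ctrl and 5.10, 4.57 and 4.77 in KO (log2 fold change -1.62, edgeR adjusted p = 0.000101). The footprints that remained in KO libraries do not show whether intact protein was made.

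The number of footprints differed between KO and ctrl for 651 of 10792 transcripts tested (6.03%) at an adjusted p under 0.05. They fell in KO for 433 transcripts (4.01%) and rose for 218 (2.02%). The change was moderate in size. Its median on the log2 scale was -0.64 for the transcripts that fell (quartiles -0.90 and -0.49) and 0.53 for those that rose (quartiles 0.41 and 0.70). It exceeded 1 for 74 of the former and 17 of the latter. The KO and ctrl libraries did not overlap for 420 of the 433 and 207 of the 218, where 12.8% of all transcripts tested lay without overlap on the lower side and 11.8% on the higher side. Leaving out 1 library gave 248 to 353 transcripts lower and 95 to 159 higher, with the lowest numbers without KO replicate 2, and 166 and 36 transcripts were called in all 6 of those fits.

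**Figure D1:**
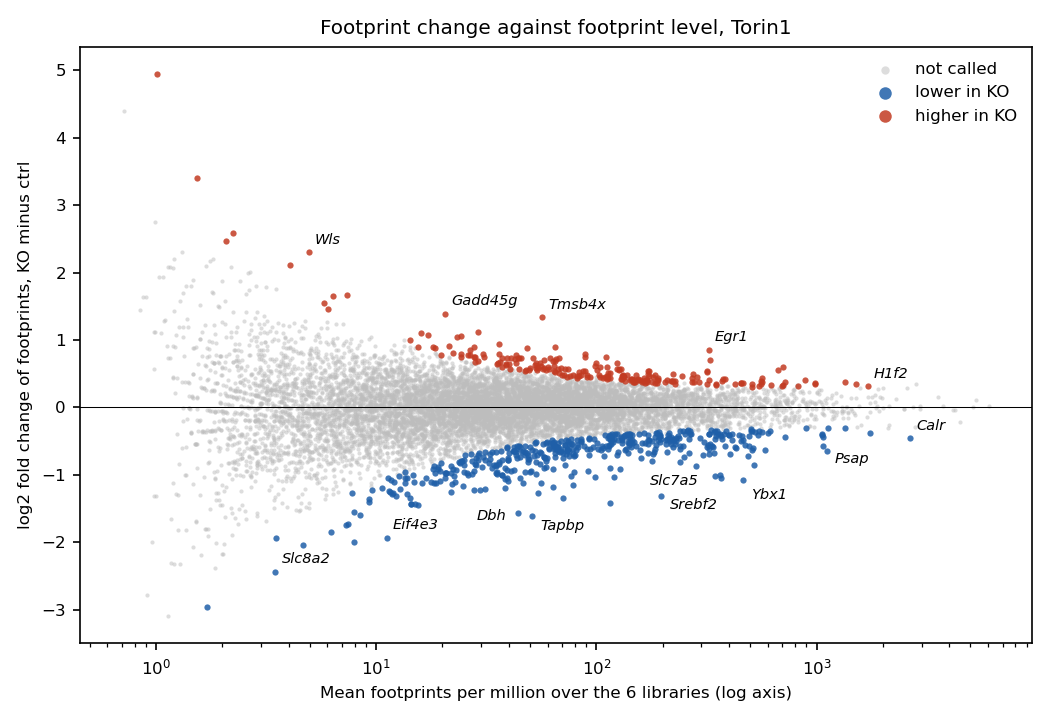
Log2 fold change of footprints (KO minus ctrl, Torin1) against the mean CPM of footprints over the 6 libraries (log axis), 1 point per transcript, with transcripts called lower in blue, called higher in red and not called in grey. The 433 blue points outnumber the 218 red ones, and at low levels the called points lie far from 0.

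Depth set which changes could be seen. In the 2704 transcripts with the fewest footprints (mean 1.33 to 21.8 counts per library) the median SE of the log2 fold change was 0.434, and 0.888% of transcripts were called lower and 0.370% higher. In the equal-sized group with the most (152 to 10700 counts) the median SE was 0.117, and 7.38% and 4.45% were called.

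The transcripts that fell with the smallest adjusted p code for proteins of several kinds. Srebf2, the transcription factor that switches on genes of cholesterol synthesis and uptake, had 302, 255 and 287 CPM of footprints in ctrl and 102, 106 and 133 in KO (log2 fold change -1.31 ± 0.118, edgeR adjusted p = 5.03e-10). Ybx1, an mRNA- and DNA-binding cold-shock domain protein, had 603, 628 and 648 in ctrl and 283, 335 and 276 in KO (-1.07 ± 0.102, edgeR adjusted p = 1.51e-09). Slc7a5, the light chain of the LAT1 transporter that brings leucine and other large neutral amino acids into the cell, had 468, 480 and 541 in ctrl and 233, 226 and 261 in KO (-1.05 ± 0.104, edgeR adjusted p = 3.20e-09). For all 3 the KO libraries lay far below the ctrl libraries, while their mRNAs changed by -0.08, -0.07 and -0.02 and were not called.

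**Figure D2:**
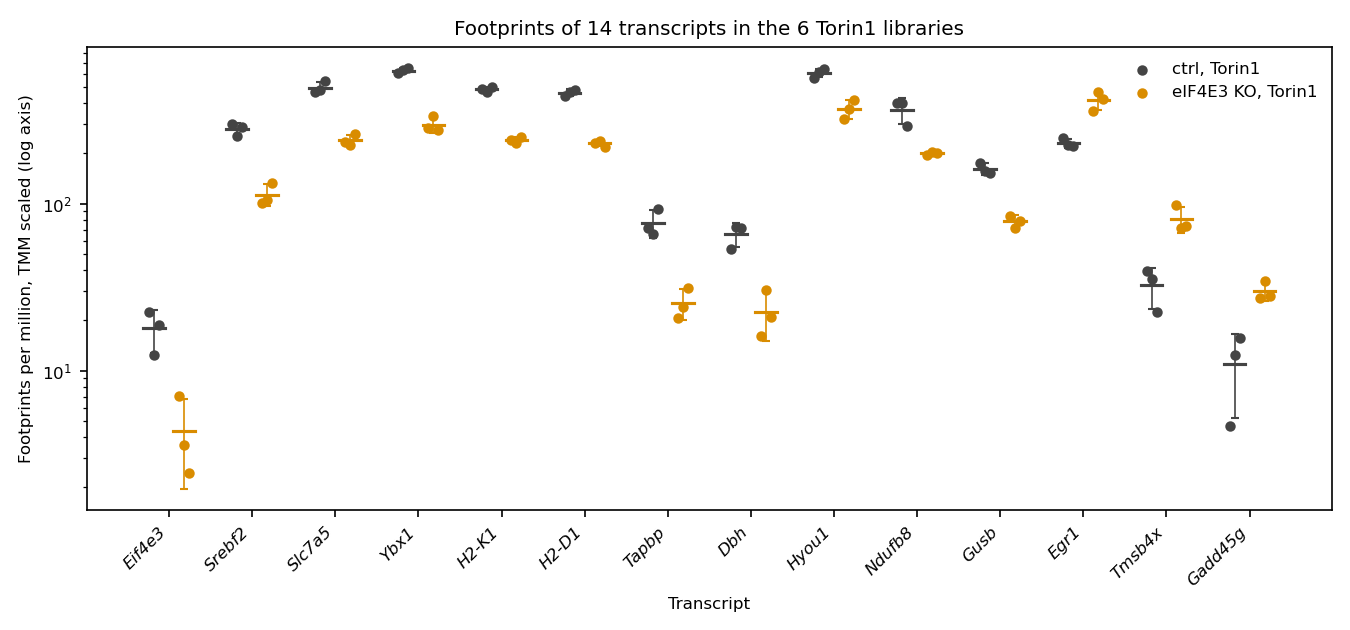
TMM-scaled CPM of footprints (log axis) of 14 named transcripts in the 3 ctrl (grey) and 3 KO (orange) Torin1 libraries, with points for libraries, horizontal bars for means and whiskers for the SD. No transcript shown has overlapping groups, and Egr1, Tmsb4x and Gadd45g are higher in KO while the other 11 are lower.

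The group with the largest median decrease was MHC class I and its peptide loading, the machinery that presents cytosolic peptides on the cell surface. Of 18 members tested, 9 fell, none rose, and the median log2 fold change was -0.52, against 4.01% lower and a median of 0.00 over all transcripts. The heavy chain H2-K1 had 488, 466 and 498 CPM of footprints in ctrl and 242, 232 and 252 in KO (-0.999 ± 0.102, edgeR adjusted p = 3.20e-09), and H2-D1 had 441, 467 and 482 in ctrl and 232, 237 and 220 in KO (-1.01 ± 0.102, edgeR adjusted p = 3.20e-09). Tapbp, which codes for tapasin, the bridge between the peptide transporter and the heavy chain, had 71.4, 65.6 and 93.1 in ctrl and 20.8, 24.1 and 31.3 in KO (-1.61 ± 0.182, edgeR adjusted p = 6.19e-08). H2-T23, a non-classical heavy chain, fell by 1.18 on the log2 scale. Calr, the ER chaperone calreticulin that also serves this pathway, went from 3008, 2989 and 3254 to 2293, 2311 and 2134 (-0.46 ± 0.0910). In each of these 5 the groups did not overlap and the call held without any 1 library. H2 heavy chains are close paralogs whose footprints can be shared between copies, so the split among them is uncertain. Of the 9 members that fell, 7 lie on chromosome 17, among them Tapbp (chr17:33919332-33929292, GRCm38, plus strand), H2-K1 (chr17:33996053-34000347, minus strand) and H2-D1 (chr17:35262730-35267499, plus strand). The median over all 554 transcripts of chromosome 17 was -0.04.

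Of 25 members tested for cholesterol synthesis and its regulation 6 fell and none rose (median -0.16), where 4.01% of all transcripts fell. Besides Srebf2 these included Srebf1, its paralog that drives fatty acid synthesis (286, 294 and 339 CPM of footprints in ctrl, 156, 185 and 184 in KO, -0.81 ± 0.111, edgeR adjusted p = 2.78e-06), and Scap, the escort that carries SREBP proteins from the ER to the Golgi (23.3, 17.9 and 21.3 in ctrl, 5.19, 5.65 and 12.9 in KO, -1.42 ± 0.318, edgeR adjusted p = 0.00381). The groups did not overlap for these 3, and each call held without any 1 library. The mRNAs of Srebf2, Srebf1 and Scap moved by -0.08, 0.01 and -0.07 and none was called.

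Mitochondrial respiration was the list with the most members called. Of 77 tested subunits and assembly partners of oxidative phosphorylation, 22 fell and none rose (median -0.24), where 4.01% of all transcripts tested and 7.38% of those with the most footprints fell. By complex, 8 of 37 fell for complex I, 1 of 4 for complex II, 2 of 9 for complex III, 4 of 12 for complex IV and 7 of 15 for ATP synthase. Ndufb8, a membrane-arm subunit of complex I, had 403, 400 and 291 CPM of footprints in ctrl and 195, 205 and 200 in KO (-0.86 ± 0.114, edgeR adjusted p = 1.60e-06). Ndufa9 of the same complex went from 427, 439 and 398 to 282, 254 and 254 (-0.68 ± 0.102), and Cyc1, cytochrome c1 of complex III, from 795, 672 and 664 to 442, 448 and 488 (-0.63 ± 0.100). The mRNAs of Ndufb8 and Ndufa9 were also called lower, by 0.27 and 0.20 on the log2 scale. Without ctrl replicate 1 the list had 12 members lower.

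Other mitochondrial and carbon metabolism lists had fewer calls. Of 21 members of the TCA cycle and pyruvate entry, 3 fell, led by Pcx, pyruvate carboxylase (112, 90.9 and 94.3 against 63.7, 55.5 and 58.9 CPM, -0.73 ± 0.143, edgeR adjusted p = 0.000924). The other two, Mpc2 and Suclg2, lost their call when ctrl replicate 2, ctrl replicate 3 or KO replicate 2 was left out, with adjusted p of 0.0602 to 0.205 from the same test. Mpc2 also lost it without ctrl replicate 1 (adjusted p = 0.0529) and Suclg2 without KO replicate 1 (adjusted p = 0.106). Of 16 members of glycolysis 3 fell, with Pfkl, liver-type phosphofructokinase, at -0.53 ± 0.117 called in every fit, and 1 member was called without KO replicate 3, where Tpi1 and Hk1 had adjusted p of 0.0723 and 0.143. Hk1 also lost its call without 4 other libraries (0.0657 to 0.179, all but ctrl replicate 1). Of 82 proteins of the mitochondrial ribosome 5 fell (median -0.12), a share near the 4.01% of all transcripts and so no result about the list. All 5 were of the large subunit, and 1 was called without ctrl replicate 1 or without KO replicate 3. Among 41 enzymes of amino acid synthesis and breakdown only Got2 was called, and its call ended without KO replicate 1 (adjusted p = 0.0746) or KO replicate 2 (adjusted p = 0.0526, edgeR).

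TOP mRNAs carry a pyrimidine tract at their 5′ end, code for ribosomal proteins and elongation factors, and depend strongly on mTOR for translation. In KO cells 15 of 87 fell and none rose (median -0.19), against 4.01% lower over all transcripts and 7.38% among those with the most footprints. They were 8 of 33 for the small subunit, 6 of 49 for the large subunit and 1 of 5 elongation factors. Rpl11 went from 551, 465 and 426 to 344, 352 and 337 CPM of footprints (-0.48 ± 0.104, edgeR adjusted p = 0.00314), Rpl32 from 249, 258 and 244 to 171, 192 and 182 (-0.46 ± 0.108) and Rps15 from 274, 250 and 233 to 189, 178 and 170 (-0.49 ± 0.109), without overlap between the groups. Rps15 was no longer called after the GC correction (-0.30, edgeR adjusted p = 0.104). The number of TOP mRNAs called fell to 7 without ctrl replicate 1. Ribosomal protein genes have many processed copies. The authors removed reads that mapped to annotated pseudogenes, yet Rps18-ps5 and Rps18-ps6 remained among the transcripts tested and were called lower. How footprints were split between such copies was not tested.

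The lists of the ER, lysosome, extracellular matrix and proteasome were read against the same 4.01% of all transcripts lower and 2.02% higher. Of 45 members tested for ER translocation and N-glycosylation 6 fell (median -0.18). Emc1, the largest subunit of the ER membrane complex that inserts membrane proteins, had 82.2, 96.8 and 124 CPM of footprints in ctrl and 32.6, 44.2 and 44.8 in KO (-1.33 ± 0.163, edgeR adjusted p = 3.32e-07), and Emc10 and Srprb, the latter a subunit of the receptor for the signal recognition particle, fell by 0.80 and 0.72. Of 17 ER chaperones 4 fell, Hyou1 from 569, 611 and 640 to 320, 369 and 416 (-0.72 ± 0.104, edgeR adjusted p = 7.66e-06), and 2 were called without KO replicate 2. Of 39 proteins of the lysosome and its proton pump 10 fell and 1 rose, the membrane protein Lamp2 (0.61 ± 0.131, edgeR adjusted p = 0.00295), which was not called after the GC correction. Gusb, beta-glucuronidase, had 176, 156 and 153 in ctrl and 85, 71.4 and 79.1 in KO (-1.04 ± 0.127, edgeR adjusted p = 3.32e-07) while its mRNA fell by 0.24, Psap, the precursor of the saposins, had 1347, 1408 and 1311 in ctrl and 785, 924 and 895 in KO (-0.64 ± 0.0954), and Grn, progranulin, fell by 0.79. Without KO replicate 2 the lysosomal count was 6. Among extracellular matrix and integrins 6 of 19 fell, 5 of them matrix proteins. Lamc1, a laminin chain, fell by 0.67, and Lama5, another, had 7.76, 11.4 and 18.9 in ctrl and 1.89, 4.62 and 3.06 in KO (-2.00 ± 0.424, edgeR adjusted p = 0.00228). Without KO replicate 2 that count was 3. Of 32 proteasome subunits 5 fell, led by Psmb6, the caspase-like subunit of the 20S core, at -0.54 ± 0.109 (edgeR adjusted p = 0.00136), and 2 were called without KO replicate 2.

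**Figure D3:**
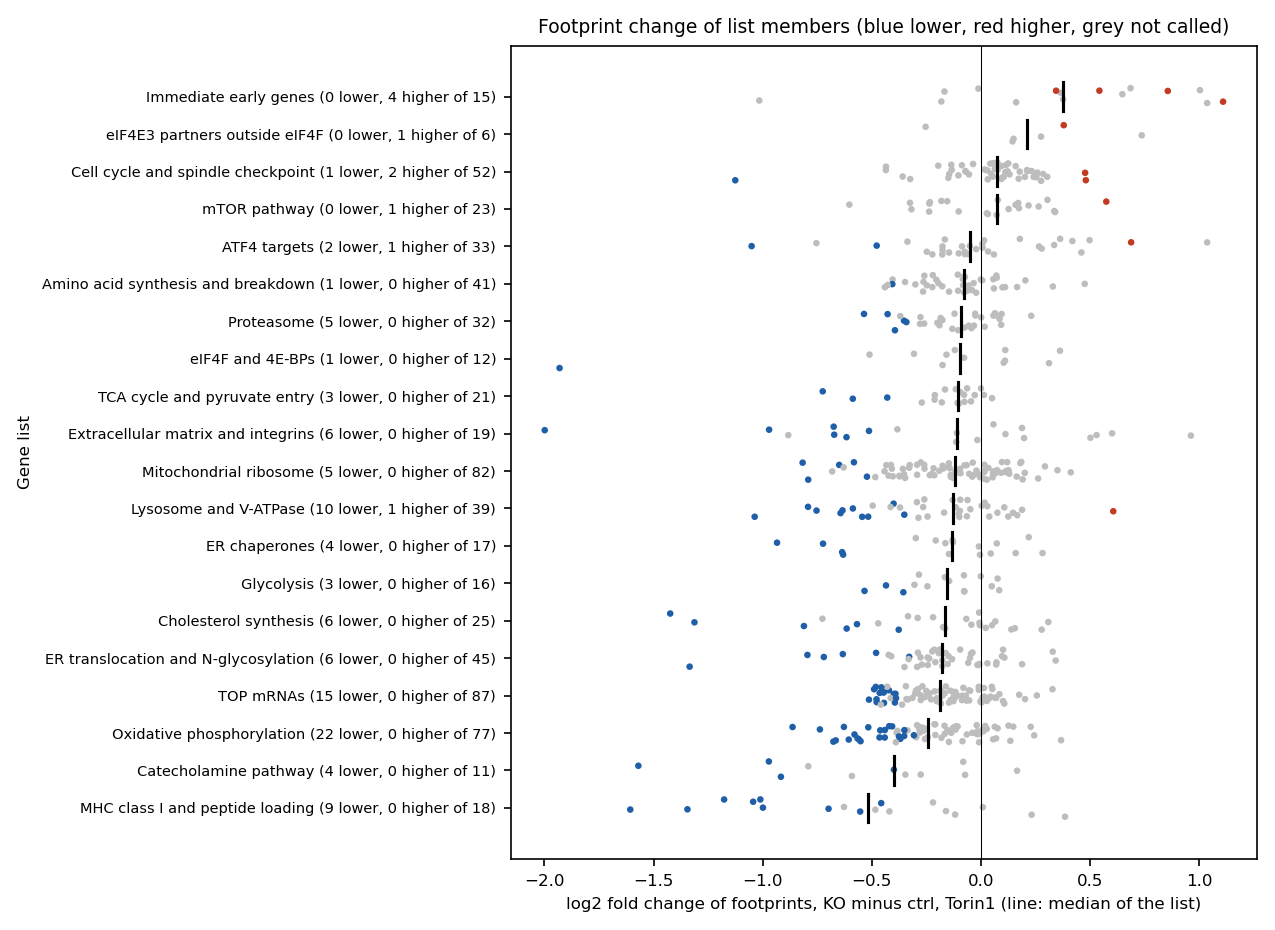
Log2 fold change of footprints (KO minus ctrl, Torin1) of each tested member of 20 gene lists, with members called lower in blue, called higher in red and not called in grey, and a black line at the median of the list. Medians run from -0.52 for MHC class I to 0.38 for immediate early genes, and the numbers called stand beside each name.

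The lists with no member called higher (14 of the 20) had 0 to 2 members each that were higher at an unadjusted p under 0.05, and neither DESeq2 nor edgeR's exact test called one. The replicate block called 1 higher for TOP mRNAs and 1 for ER chaperones. Leaving out 1 library called at most 1 member higher in any of them. After a correction for GC content, the number of members that fell was 18 for oxidative phosphorylation, 12 for TOP mRNAs (with 1 higher), 10 for MHC class I, 10 for ER translocation and N-glycosylation, 1 for glycolysis and 3 for extracellular matrix.

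The catecholamine pathway was examined because N2a cells derive from a sympathoadrenal tumour. Of 11 members tested 4 fell and none rose (median -0.40), where 4.01% of all transcripts fell. Dbh, dopamine beta-hydroxylase, which turns dopamine into noradrenaline, had 53.5, 72.5 and 71.2 CPM of footprints in ctrl and 16.1, 30.3 and 20.8 in KO (-1.57 ± 0.195, edgeR adjusted p = 4.61e-07). Its mRNA was also called lower (-0.41, edgeR adjusted p = 0.0422), and it was lower in DMSO as well (-1.10, edgeR adjusted p = 0.0132). Th, tyrosine hydroxylase, the rate-limiting enzyme of the pathway, had only 7.76, 2.98 and 3.65 in ctrl and 3.78, 2.57 and 2.45 in KO, and no difference was detectable at that depth (-0.59 ± 0.518, edgeR adjusted p = 0.558). The calls of Spr, Cyb561 and Slc18a2 each ended without KO replicate 1 (edgeR adjusted p = 0.0549, 0.102 and 0.204), which left Dbh alone. Those calls also ended without KO replicate 2 for Spr and Slc18a2, without ctrl replicate 2 for Cyb561 and Slc18a2, without ctrl replicate 1 or KO replicate 3 for Cyb561 and without ctrl replicate 3 for Slc18a2 (adjusted p = 0.0550 to 0.189).

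Besides Eif4e3, no other member of the eIF4F list passed the test. Eif4e, the canonical cap-binding protein, had 369, 363 and 338 CPM of footprints in ctrl and 388, 318 and 306 in KO, with overlapping groups (-0.08 ± 0.106, edgeR adjusted p = 0.740). With the GC correction and the replicate block together Eif4e was called lower (-0.27, edgeR adjusted p = 0.0354), and with the GC correction alone it was not (adjusted p = 0.148). Eif4e2, another family member, had 99.3, 80.5 and 72.4 in ctrl and 119, 106 and 94.4 in KO, with overlapping groups (0.36 ± 0.139, edgeR adjusted p = 0.117, or 0.0473 without ctrl replicate 1). The scaffolds Eif4g1 and Eif4g3 were at 0.11 ± 0.102 and 0.10 ± 0.114, the helicases Eif4a1 and Eif4a2 at 0.11 ± 0.0941 and 0.31 ± 0.138, their cofactors Eif4b and Eif4h at -0.16 ± 0.109 and -0.12 ± 0.101, Pabpc1, the poly(A)-binding protein, at -0.31 ± 0.160, and the 4E-binding proteins Eif4ebp1 and Eif4ebp2 at -0.18 ± 0.132 and -0.51 ± 0.405 (edgeR adjusted p = 0.182 to 0.661 for these 9). The sign for Eif4ebp1 turned to 0.05 after the GC correction. Among 6 candidate partners of eIF4E3 outside eIF4F only Cdc5l, a spliceosome component, was called (0.38 ± 0.114, edgeR adjusted p = 0.0363). That call ended without ctrl replicate 1, ctrl replicate 2, KO replicate 2 or KO replicate 3 (adjusted p = 0.111 to 0.130) and after the GC correction (adjusted p = 0.263). Angel1, Hspa2, Hspa8, Hif1an and Xiap had log2 fold changes of -0.25 to 0.74 and were not called. Xiap, an inhibitor of apoptosis, had an adjusted p of 0.0531 and was called with the replicate block (adjusted p = 0.0446) and by edgeR's exact test (adjusted p = 0.0346).

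Increases included growth-induced transcription factors. Of 15 immediate early genes tested 4 rose and none fell, where 2.02% of all transcripts rose (7 higher and 0 lower at an unadjusted p under 0.05), with a median of 0.38. Egr1 had 247, 224 and 221 CPM of footprints in ctrl and 361, 469 and 421 in KO (0.86 ± 0.109, edgeR adjusted p = 7.69e-07). Ier2 had 140, 131 and 151 in ctrl and 200, 217 and 196 in KO (0.54 ± 0.114, edgeR adjusted p = 0.00194). Junb and Egr2 each lost their call without ctrl replicate 1, ctrl replicate 2 or KO replicate 2 (edgeR adjusted p = 0.0563 to 0.250). Egr2 also lost it without ctrl replicate 3 or KO replicate 3 (adjusted p = 0.0799 and 0.0708), and KO replicate 1 of Egr2 (10.9 CPM) lay among the ctrl libraries. Cell cycle and spindle checkpoint had 2 of 52 members higher and 1 lower, where 2.02% and 4.01% of all transcripts were called, so the list did not stand out by its counts. The kinase Bub1 (109, 121 and 100 against 151, 150 and 161) and the kinetochore scaffold Knl1 (100, 126 and 119 against 158, 152 and 174) rose by 0.48 each, and neither was called after the GC correction (adjusted p = 0.356 and 0.623). Bub1 lost its call without ctrl replicate 3 (adjusted p = 0.0715) and Knl1 without ctrl replicate 1 or KO replicate 3 (adjusted p = 0.0684 and 0.0623, edgeR). Ccnd3, cyclin D3, fell by 1.13 and lost its call without ctrl replicate 3 or KO replicate 1 (adjusted p = 0.0572 and 0.102).

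Of 33 tested targets of ATF4, the factor of the integrated stress response, 2 fell and 1 rose. Over all transcripts 4.01% fell and 2.02% rose, so the list did not stand out by its counts. Besides Slc7a5, the glutamine transporter Slc1a5 fell (-0.48 ± 0.111, edgeR adjusted p = 0.00560), a call that ended without KO replicate 1 (adjusted p = 0.0707) and after the GC correction (adjusted p = 0.138). Ddit3, the stress factor CHOP, was at 27.9, 23.8 and 15.2 CPM in ctrl and 40.1, 35.5 and 30.6 in KO (0.69 ± 0.216, edgeR adjusted p = 0.0472), a call that ended without any 1 of 4 libraries (adjusted p up to 0.255, without ctrl replicate 3). In the mTOR pathway itself 1 of 23 members was called, where 6.03% of all transcripts were, so the count is no result about the list. It was the kinase Akt2 (0.57 ± 0.179, edgeR adjusted p = 0.0455), whose call ended without any of 5 libraries (adjusted p up to 0.206, without KO replicate 1).

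The increases largest in size were mostly on transcripts with few footprints. Tmsb4x was an exception, with a mean of 32.4 CPM in ctrl and 81.2 in KO. The median over all transcripts was 33.5 CPM. Wls, which carries Wnt proteins to the cell surface, had 0.776, 0.993 and 3.04 CPM of footprints in ctrl and 6.61, 10.3 and 7.97 in KO (2.30 ± 0.524, edgeR adjusted p = 0.00458). Gadd45g, a stress-induced growth arrest gene, had 4.66, 12.4 and 15.8 in ctrl and 27.4, 34.4 and 28.2 in KO (1.39 ± 0.271, edgeR adjusted p = 0.000820). Tmsb4x, thymosin beta 4, which binds actin monomers, had 39.6, 35.3 and 22.5 in ctrl and 98.2, 71.9 and 73.6 in KO (1.34 ± 0.179, edgeR adjusted p = 2.12e-06). Its mRNA rose by 1.00, and in DMSO its footprints rose by 1.35, both called. Tank, an adaptor of NF-kappaB and interferon signalling, had 19.4, 21.9 and 13.4 in ctrl and 47.2, 35.5 and 36.8 in KO (1.12 ± 0.217). Those 4 calls held without any 1 library. Nrcam, Gsto1, Tox, Il13ra1, Ulk2 and H60b rose by 1.07 to 2.10 but lost their calls without 2 to 4 of the libraries, with edgeR adjusted p of 0.0589 to 0.239. These were ctrl replicate 2 and KO replicates 2 and 3 for Nrcam, ctrl replicate 2 and KO replicate 2 for Gsto1, ctrl replicate 3 and KO replicates 1 and 3 for Tox, ctrl replicates 1 and 3 and KO replicate 1 for Il13ra1, these and KO replicate 3 for Ulk2, and ctrl replicate 1 and KO replicate 1 for H60b. The mRNA of Nrcam was called higher as well (0.90, edgeR adjusted p = 0.0349). In DMSO the footprint changes of Wls, Gadd45g, Nrcam and H60b were 2.97, 1.37, 2.12 and 1.16, none called. Those of Tank, Gsto1, Tox, Il13ra1 and Ulk2 in DMSO were -0.05 to 0.92, each smaller than with Torin1 and not called.

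Among the largest decreases, Man2a2, a Golgi mannosidase, had 11.6, 11.9 and 10.3 CPM of footprints in ctrl and 2.83, 5.14 and 1.84 in KO (-1.74 ± 0.413, edgeR adjusted p = 0.00631), a call that held without any 1 library. Slc8a2, a sodium-calcium exchanger, had 7, 16 and 7 counts in ctrl and 2, 1 and 3 in KO, at least 3.68-fold lower if each KO library is set to a floor of 3 counts. Its call ended without ctrl replicate 2 or KO replicate 2 (edgeR adjusted p = 0.0745 and 0.0663). Mknk2, a kinase that phosphorylates eIF4E, had 16.3, 6.95 and 15.2 CPM in ctrl and 2.83, 6.17 and 3.06 in KO (-1.60 ± 0.412, edgeR adjusted p = 0.0118), and lost its call without ctrl replicate 1, ctrl replicate 3 or KO replicate 1 (adjusted p = 0.0626 to 0.0814). Crb2, Atp2a3 and H2-M2 fell (log2 fold changes -2.04, -1.85 and -1.72) and lost their calls without KO replicate 2 (edgeR adjusted p = 0.135, 0.0741 and 0.0554). Crb2 and Atp2a3 also lost them without ctrl replicate 1 (adjusted p = 0.149 and 0.0578), and Crb2 also without ctrl replicate 2 or KO replicate 3 (adjusted p = 0.0546 and 0.106).

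The 5 called transcripts with the most footprints in each direction changed by at most 0.64 on the log2 scale. They were Calr, Ubb, Atp5g3, Dkk1 and Psap of the decreases, at -0.64 to -0.30, and H1f2, Hist1h4n, Top2a, Cltc and Xpo1 of the increases, at 0.32 to 0.38. Other transcripts with many footprints changed more, such as Ybx1 (-1.07) and Slc7a5 (-1.05). Dkk1, a secreted Wnt antagonist, and Atp5g3, a subunit c gene of ATP synthase, were called in none of the fits that left out 1 library (edgeR adjusted p = 0.0515 to 0.207), Ubb not without KO replicate 1 or 2 (adjusted p = 0.0976 and 0.0600), and each of the 5 increases ended in 3 or 4 of those fits (adjusted p = 0.0526 to 0.229), all 5 without KO replicate 2. After the GC correction Top2a, Cltc and Xpo1 of the increases and Ubb and Dkk1 of the decreases were no longer called (adjusted p = 0.370, 0.395, 0.979, 0.138 and 0.237). Histone genes such as H1f2 and Hist1h4n have near-identical copies, and their split is uncertain.

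To ask whether the footprint change went beyond the mRNA, both assays were fitted in 1 model and the difference between the footprint and the mRNA change was tested. It passed for 299 of 10509 transcripts (2.85%), 237 lower (2.26%) and 62 higher (0.590%). With the replicate number as a block the number was 541. Without KO replicate 1 or KO replicate 2 of the Ribo-seq it was 188 or 178. Of the 428 transcripts with fewer footprints that could be tested, 212 (49.5%) were also lower in this test, as were 43 of the 208 with more footprints on the higher side (20.7%). This test reuses the footprint libraries that gave the calls, so the overlap is not independent. By list, it called 6 oxidative phosphorylation members, 5 TOP mRNAs and 8 MHC class I members lower, against 22, 15 and 9 called lower by footprints alone. In the fits without the block, the mRNA itself was called lower for 24 of the 428 and higher for 1, and called higher for 16 of the 208. These overlaps were not counted with the block, which called more mRNAs. Of 11007 mRNAs 216 were called in all (1.96%), 0.954% lower and 1.01% higher, or 1041 with the replicate block. The median mRNA change was -0.08 for transcripts with fewer footprints and 0.08 for those with more. Among transcripts with changed footprints, the smallest adjusted p in this test belonged to Srebf2, H2-D1, Slc7a5, Ybx1 and H2-K1, whose footprint change minus mRNA change was -1.23, -0.99, -1.02, -0.996 and -0.93 on the log2 scale (edgeR adjusted p = 8.44e-07 to 1.48e-06).

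**Figure D4:**
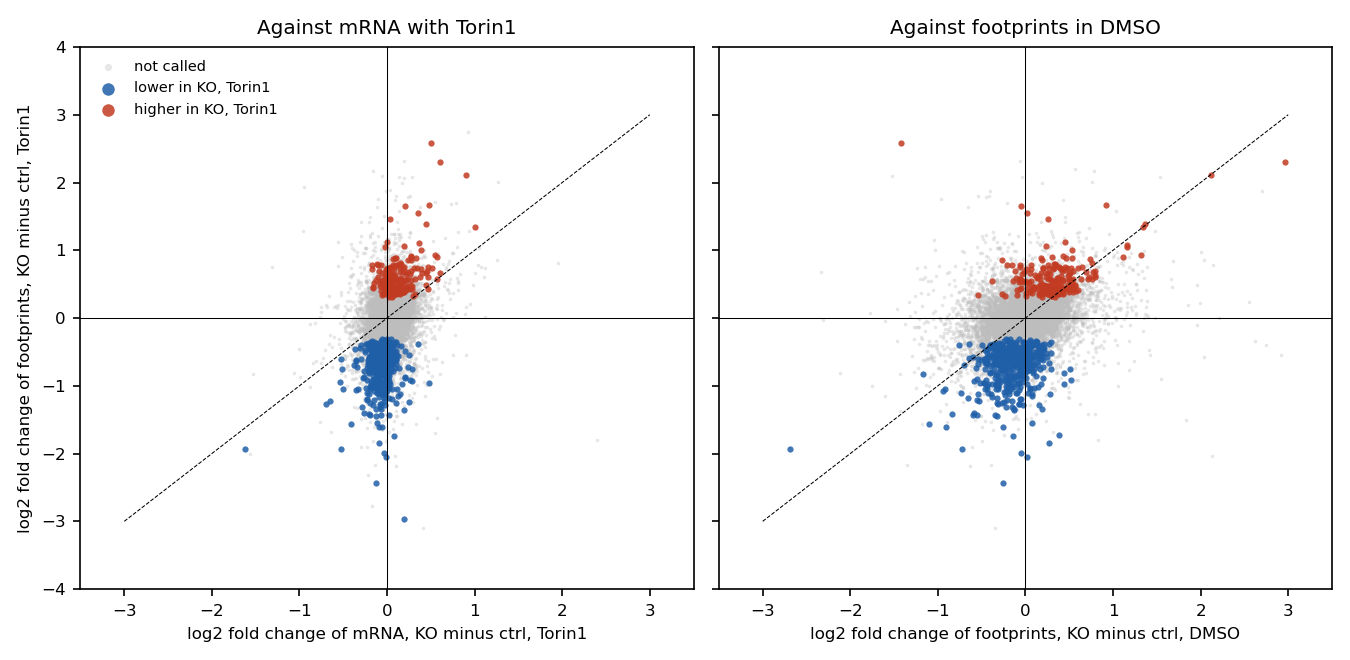
Log2 fold change of footprints with Torin1 (KO minus ctrl, y axis) against that of mRNA with Torin1 (left) and of footprints in DMSO (right), 1 point per transcript, coloured by the call with Torin1, with a dashed line of equal change. Most coloured points stand away from the dashed line near an mRNA change of 0 in the left panel, where 1 transcript lies outside the axes, and spread further along the x axis in the right panel.

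The same comparison in DMSO asked whether the difference was there before Torin1. Only 3 of 10757 transcripts were called (0.0279%), Eif4e3 (-2.69) and Dbh (-1.10) lower (0.0186%) and Tmsb4x (1.35) higher (0.0093%), and 850 had an unadjusted p under 0.05. Ctrl DMSO had 2 libraries, of 4531077 and 669535 counts, against 1289467 to 2132682 in the Torin1 libraries. KO DMSO had 3, of 2715498, 5288571 and 3150355 counts. Of the 432 transcripts lower with Torin1 that were tested in DMSO, 327 had a lower value there too (median -0.15), where 5291 of all 10564 transcripts tested in both did. Of the 214 higher with Torin1, 187 had a higher value in DMSO (median 0.30).

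The test of the difference itself, the interaction of genotype with Torin1, called 12 of 10705 transcripts (0.112%, 735 at an unadjusted p under 0.05), all with a KO effect more negative with Torin1 than in DMSO, and all 12 were also among the 433 that fell. Both tests use the same Torin1 libraries, so that overlap is not independent. The 12 were Slc7a5, Loxl2, Fbln2, Nomo1, Srebf2, Tapbp, Ganab, Emc1, Hyou1, Gdpd1, Ybx1 and H2-D1. Slc7a5 was called in each of the 11 fits that left out 1 Ribo-seq library. It had 1330 and 1050 CPM of footprints in ctrl and 1240, 1190 and 1280 in KO in DMSO, where values were scaled separately, and a KO effect of 0.05 there against -1.05 with Torin1 (difference -1.10 ± 0.177, edgeR adjusted p = 0.00542). Fbln2, a matrix protein, had a KO effect of 0.08 in DMSO and -1.15 with Torin1 (-1.23 ± 0.209), and Nomo1, a subunit of a translocon complex in the ER membrane, 0.10 and -1.03 (-1.12 ± 0.196, both edgeR adjusted p = 0.00542). The number called was 35 with the replicate block, 1 without KO Torin1 replicate 1, 7 without KO Torin1 replicate 2 or ctrl Torin1 replicate 3, and 50 without ctrl DMSO replicate 1 or 21 without ctrl DMSO replicate 3. For the others of the 433 that fell, no difference between Torin1 and DMSO was shown.

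The features of the mRNAs were compared between the calls, as a description. The median length of the 5′ transcript leader (5′ TL) was 124 nt for transcripts that fell (quartiles 66 and 234), 173 nt for those not called (95 and 299) and 222 nt for those that rose (123 and 353). By 4 groups of length, the share called lower went from 6.03% of transcripts with at most 94 nt to 2.49% with over 297 nt, and the share called higher from 1.29% to 2.72%. GC content differed more. The CDS of transcripts that fell had a median GC content of 57.3%, of those not called 52.6% and of those that rose 45.4%. The 3′ UTR was also shorter for transcripts that fell (median 629 nt, 1030 nt for those not called) and longer for those that rose (1250 nt). The median CDS length was 1270 nt, 1370 nt and 1830 nt for lower, not called and higher.

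**Figure D5:**
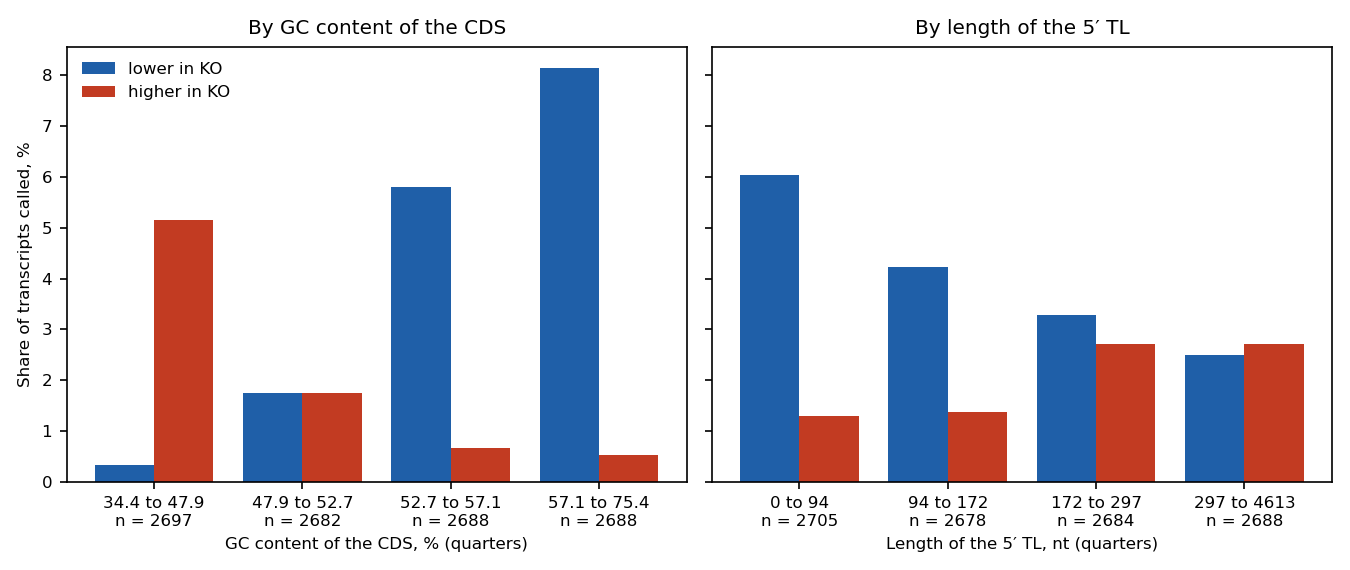
Share of transcripts called lower (blue) and higher (red) in KO with Torin1, in %, by 4 equal-sized groups of the GC content of the CDS (left) and of the 5′ TL length (right). From the lowest to the highest GC group the share called lower goes from 0.334% to 8.15% and the share called higher from 5.15% to 0.521%.

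The trend with GC content was present in other libraries too. Across transcripts, Pearson's r between the GC content of the CDS and the log2 fold change was -0.37 for footprints with Torin1 (10755 transcripts), -0.44 for footprints in DMSO (10528) and -0.24 for mRNA with Torin1 (10473). These comparisons used separate libraries of the same pair of lines. They share the base composition of the transcripts, and within each comparison all transcripts share its libraries. The mean GC content of the CDS, weighted by footprints, was 51.68%, 51.24% and 51.41% in the ctrl Torin1 libraries and 50.97%, 51.17% and 51.01% in the KO Torin1 libraries, without overlap. Its part in the calls was examined by removing, from each library, a smooth trend of level with GC content. The fit then called 306 transcripts lower and 132 higher, and 236 of the 433 and 68 of the 218 were among them. Srebf2, Ybx1, Slc7a5, H2-K1, H2-D1, Tapbp, Dbh, Emc1, Gusb and Egr1 remained called (adjusted p at most 1.90e-06, edgeR). Besides the losses given above, Tpi1, Hk1, Spr, Cyb561, H60b, Il13ra1, Ulk2 and Crb2 were no longer called (edgeR adjusted p = 0.0514 to 0.116). In all, 24 of the 93 called transcripts chosen by the naming rules lost their call. Some of them are list members not described above (edgeR adjusted p up to 0.182). Within the upper 3 of the 4 groups by GC content, transcripts that fell still had shorter 5′ TLs (median 105, 124 and 125 nt) than those not called (171, 169 and 169 nt). In the lowest group only 9 transcripts fell (median 236 nt, against 181 nt).

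The share called higher was 0.626% to 4.10% on the autosomes, highest on chromosome 13, and the share called lower was 0.702% to 6.57%, lowest on chromosome 18. On chromosome X 33 of 372 transcripts tested were higher in KO (8.87%) and 4 were lower, and the median log2 fold change of footprints with Torin1 was 0.17, against -0.07 to 0.08 on the other chromosomes. The median of X-linked transcripts was 0.14 for mRNA with Torin1 and 0.20 for footprints in DMSO, and with Torin1 it was 0.24, 0.13 and 0.16 between same-numbered libraries of replicates 1, 2 and 3. After the GC correction it was 0.09. Without X-linked transcripts 421 were called lower and 198 higher. Among the named transcripts Tmsb4x, Il13ra1 and Xiap are X-linked.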

How the data were processed

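Counts were deposited by the authors as footprints or mRNA reads per coding sequence. They trimmed reads with cutadapt, kept footprints of 25 to 35 nt and aligned with HISAT2 to mm10. Reads mapping to annotated rRNA, tRNA or pseudogenes were removed. The rest were mapped to canonical Ensembl transcripts with Bowtie2, and P-sites were summed with riboWaltz. Versions are not given in the sources used here. Poly(A) mRNA libraries used a stranded kit. The authors' columns of fold changes, average levels, p-values and false discovery rates, and the tables of translational efficiency from RiboDiff, were not used. Reads in each table were taken from the named count columns, and 0 count columns were left unmapped.

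Transcripts with over 1 CPM in all libraries of at least 1 group were kept (10792 of 10884, 92 not). TMM scaling and the quasi-likelihood test of edgeR 4.0.16 in R 4.3.3 were run without a replicate block over the 3 libraries per group, with Benjamini-Hochberg adjustment over all transcripts and a threshold of 0.05. The footprint and mRNA changes, and genotype and Torin1, were each compared by an interaction term in 1 fit. Treatments and assays were scaled separately for printed CPM. The scripts were tested on simulated data. Leader, CDS and UTR features came from the GENCODE annotation of GRCm38 and matched 10755 of the 10792 transcripts.

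Alternatives were no TMM scaling, DESeq2 1.42.0, the exact test, no filter, a replicate block, a joint fit of all Ribo-seq conditions and leaving out each library. A GC correction (an offset per library from a loess with span 0.5) and leaving out X-linked transcripts were chosen after seeing the data. Other tools were limma 3.58.1, Python 3.11.15, numpy 2.4.6, pandas 2.3.3 and matplotlib 3.10.9. Replicate numbers pair the libraries, since per the labels each number was a different passage, and Ribo-seq lanes differed by number. Deviations of same-numbered ctrl and KO libraries had an r of 0.0244, -0.0358 and 0.0508.

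The gene lists and the groups compared were chosen with earlier results of these data known. Named were Eif4e3, the 10 largest increases and decreases without overlap and with a mean of at least 10 counts in the higher group, the 5 called transcripts with the highest CPM in each direction, up to 4 called members per list by adjusted p (1 of them is not reported here), the 5 with the smallest adjusted p in each interaction test, the initiation factors and partners, and Th and Dbh. Other genes named (such as Lamp2 or Ganab) are members of small counts chosen after their values were seen. The study set aside 1 ctrl DMSO Ribo-seq library as an outlier, and replicate 2 of that group was not analysed here. The fold of a group at or under 3 counts in every library is a bound against 3 counts per library.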

Additional observations from a re-analysis of the deposited data

Results flagged for a closer look

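The difference between the KO effect with Torin1 and that in DMSO passed the interaction test (edgeR quasi-likelihood, Benjamini-Hochberg) for 12 transcripts, each with a more negative KO effect with Torin1. It was -1.10 for Slc7a5, -1.26 for Loxl2, -1.23 for Fbln2, -1.12 for Nomo1 and -1.08 for Srebf2 on the log2 scale, each with an adjusted p of 0.00542. It was -1.35 for Tapbp and -0.967 for Ganab (adjusted p = 0.00744), -1.22 for Emc1 (0.0118), -0.925 for Hyou1 (0.0154), -1.25 for Gdpd1 (0.0319), -0.888 for Ybx1 (0.0353) and -0.879 for H2-D1 (0.0436). Of the 11 fits that left out 1 Ribo-seq library, 2 called Ybx1, 2 called H2-D1, 6 called Hyou1 and 6 called Gdpd1, while the other 8 were called in 8 to 11. In DMSO the effects of Loxl2 and Gdpd1 were 0.51 and 0.44, and neither was called there.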

How the results depend on the processing

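The 433 transcripts lower and 218 higher in KO with Torin1 were 424 and 241 without TMM scaling, 297 and 125 with DESeq2, 329 and 86 with all Ribo-seq conditions fitted together, and 306 and 132 after the GC correction. DESeq2 gave no adjusted p for 2929 transcripts, among them Eif4e3, 29 of the 433 and 10 of the 218. Leaving out 1 library gave 248 to 353 lower and 95 to 159 higher. With the replicate block, which pairs libraries by passage, footprint calls were 496 lower and 280 higher, the footprint against mRNA test called 541 in place of 299, mRNA 1041 in place of 216, the interaction 35 in place of 12 and DMSO footprints 4 in place of 3. Among named transcripts the block ended the calls of Il13ra1 and Ulk2 (adjusted p = 0.0574 and 0.0562) and added that of Xiap (0.0446). Leaving out 1 library gave 178 to 312 for the footprint against mRNA test, 1 to 50 for the interaction and 1 to 2 for DMSO. Eif4e3 stayed between -2.48 and -1.68. The log2 fold change of Eif4ebp1, not called, turned from -0.18 to 0.0508 after the GC correction and 0.0499 with the block as well. The cause was not tested. For 93 called named transcripts, 1161 of 1378 alternative values kept the call, 217 lost it and 0 changed sign. Values without an adjusted p, as for Eif4e3 with DESeq2, were not counted. Some settings lay close to the main fit. Without the filter, which drops only 92 transcripts, 93 kept the call, and without TMM scaling 91 did. With DESeq2 66 kept it and 13 lost it. Transcripts under 21.8 mean counts could show only large changes.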
